A study of Drosophila melanogaster with 6 samples.

Results

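Plasmatocytes are the macrophage-like blood cells of the fly, and 10 genes that mark them or that act in particle uptake were followed here: the clotting protein gene Hml, the Nimrod family receptor genes NimC1, NimC2, NimC4, NimA, eater and drpr, the scavenger receptor gene crq, and the transcriptional regulator genes srp and ush. They were taken by symbol, and all 10 were found among the 15656 genes of the deposited table. Whole adult male flies aged 3 to 5 d were injected with the Gram-negative bacterium E. coli in the thorax and collected 12 h later. The lncRNA-CR33942-overexpressing flies gave 3 libraries and the controls gave 3. The overexpressing strain is labelled Gal80ts; Tub>lncRNA-CR33942, the control strain Gal80ts; Tub-Gal4/P{CaryP}attP40. In both groups a tubulin promoter drove the yeast activator Gal4 throughout the body, and Gal80ts, a temperature-sensitive repressor of Gal4, held it back during growth at 18°C until adults spent over 24 h at 29°C. The control flies carry the empty landing site attP40 in place of the UAS transgene. Uninfected flies were not analysed here, so no value below measures the response to infection itself. The paper describes its experiments as having 3 independent biological replicates. The labels do not say whether the libraries came from separate cultures of flies, and p-values cover only the spread between these libraries.

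As background, plasmatocytes recognise bacteria and dying cells through surface receptors, many of them Nimrod proteins with repeated EGF-like domains, and draw the bound particle into a phagosome. The GATA factor Serpent (srp) sets blood cell fate in the embryo and also acts in the fat body, the organ that secretes most antimicrobial peptides, while U-shaped (ush) binds GATA factors and restrains the formation of crystal cells, the blood cells that carry prophenoloxidases. In an adult fly these cells are a small share of the body, and drpr, crq, srp and ush are also expressed outside the blood.

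Depth was even, with 16894595 to 19423287 reads assigned to genes per library. A normalized count is the number of reads of a gene divided by 1 size factor per library, between 0.931 and 1.06. lncRNA-CR33942, listed under its older symbol pncr016:2R, had 4452, 4914 and 4544 normalized counts in overexpressing flies, against 203, 210 and 177 in control flies, so the libraries carried the genotypes of their labels. The test was limma on log2(normalized count + 1) over 13196 genes whose mean reached 0.5 FPKM (reads scaled to gene length and to the library total), with Benjamini-Hochberg adjustment over all of them. A gene is called below where its adjusted p is under 0.05, and fold changes are on that log2 scale, positive where the overexpressing flies were higher. Of all genes tested, 420 (3.18%) were called higher and 691 (5.24%) lower. Reads scaled to the library total gave 632 and 503, that is, 55.7% of calls upward, while the deposited size factors gave 37.8%. Of the 10 members 9 passed the filter and 1, NimC4, did not.

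Per gene length the members spanned a wide range of levels. The CD36-type receptor gene crq stood highest, with 42.0 ± 2.64 FPKM in overexpressing flies and 41.1 ± 1.72 FPKM in control flies (SD, n = 3 each, as for all values given with ±). Hml followed with 35.3 ± 1.14 FPKM in overexpressing flies and 29.6 ± 1.51 in control flies, and the engulfment receptor gene drpr with 24.2 ± 1.51 FPKM in overexpressing flies and 23.7 ± 1.2 FPKM in control flies. The GATA factor gene srp had 9.29 ± 0.699 FPKM in overexpressing flies and 8.82 ± 0.292 FPKM in control flies. Below these 4 genes the order differed between the groups. In the overexpressing flies eater (4.71 ± 0.380 FPKM) and NimC1 (4.64 ± 0.629 FPKM) overlapped, as did NimA (2.10 ± 0.231 FPKM) and ush (2.06 ± 0.167 FPKM). In the control flies NimC1 (6.65 ± 0.478 FPKM) lay above eater (4.70 ± 0.122 FPKM) and ush (2.0 ± 0.065 FPKM) above NimA (1.69 ± 0.164 FPKM), with no overlap between libraries. NimC2 stood close to the filter, with 0.660 ± 0.145 FPKM in overexpressing flies and 0.599 ± 0.0626 FPKM in control flies, and NimC4 below it, with 0.229 ± 0.0564 FPKM in overexpressing flies and 0.238 ± 0.194 FPKM in control flies. Among all genes tested, 83.8% had a lower mean level than crq, 30.5% than eater and 2.37% than NimC2.

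**Figure D1:**
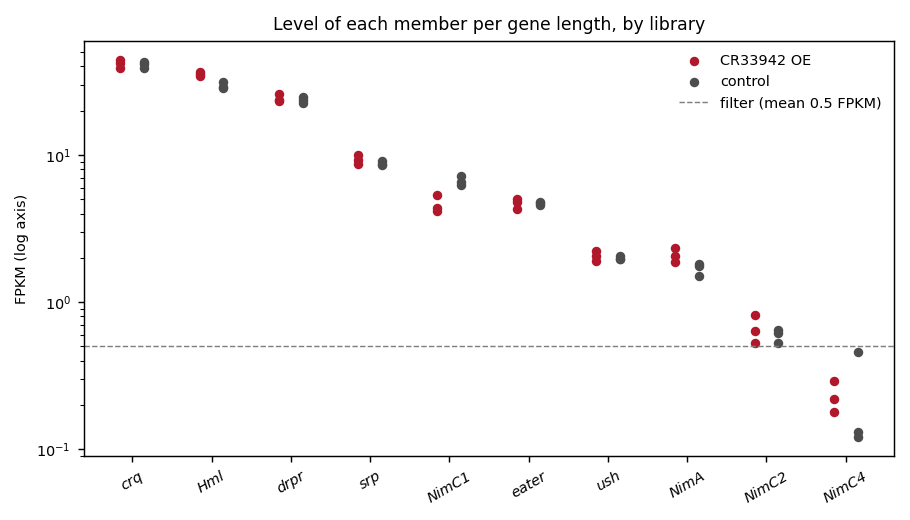
Level of each of the 10 members in FPKM on a log axis, one point per library, with overexpressing flies (red) left of control flies (grey) and the filter of 0.5 FPKM as a dashed line. NimC1 is above eater in every control library, while the 2 genes overlap in overexpressing flies.

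Hml and NimC1, both widely used as markers of plasmatocytes, were called, in opposite directions. Hml encodes hemolectin, a large secreted protein of the clot. It had 7587, 7374 and 7117 normalized counts in overexpressing flies, against 6666, 6066 and 6314 in control flies. Every overexpressing library lay above every control library, and the mean was 15.9% higher. The log2 fold change was 0.21 (standard error 0.0511, 95% interval 0.10 to 0.32, limma adjusted p = 0.0223). NimC1 encodes a receptor that binds bacteria and carries the surface antigen by which plasmatocytes are commonly stained. It had 313, 244 and 256 normalized counts in overexpressing flies, against 389, 429 and 378 in control flies. Here every overexpressing library lay below every control library, and the mean reached 0.679 of the control mean. The log2 fold change was -0.56 (standard error 0.104, 95% interval -0.79 to -0.34, limma adjusted p = 0.00527). In bulk RNA of whole flies, fewer cells of a type and less RNA per cell cannot be told apart. Thus 1 of 9 members tested was called higher, beside 3.18% of all genes, and 1 of 9 lower, beside 5.24%. The groups did not overlap for 3 of the 9 members (Hml, NimC1 and NimA), beside 27.3% of all genes tested. The median log2 fold change of the 9 was -0.0012, and that of all genes tested was 0.0059.

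**Figure D2:**
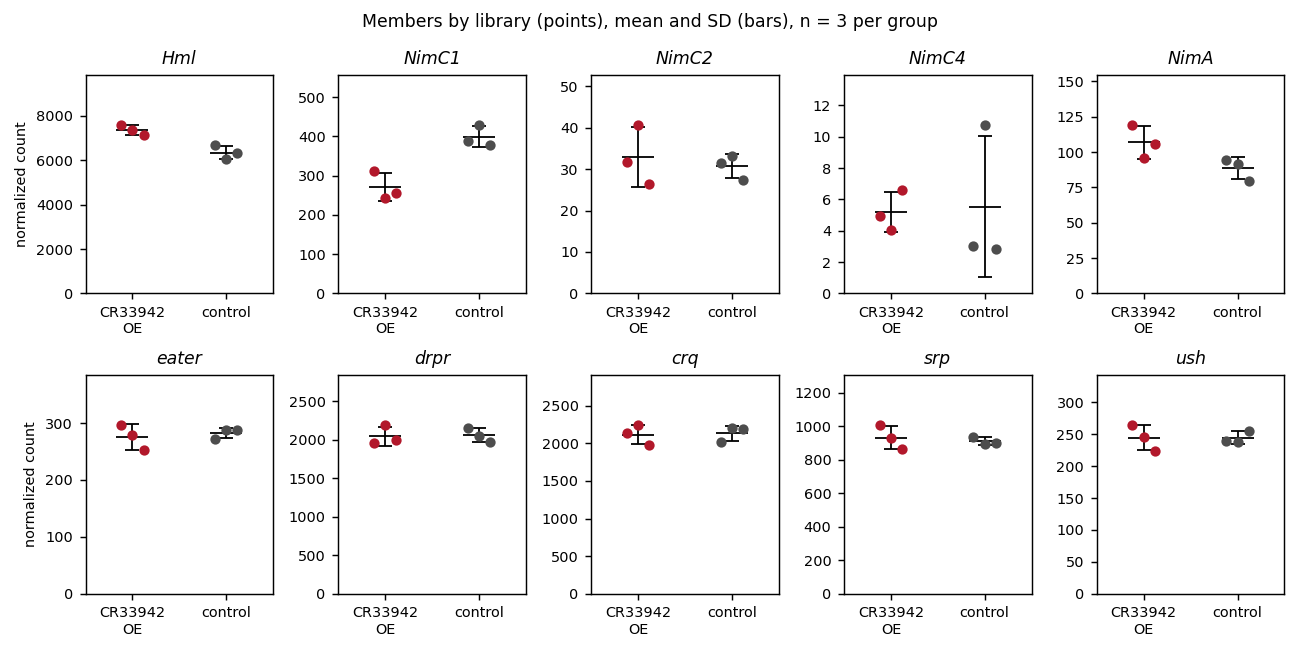
Normalized counts of the 10 members, one point per library, overexpressing flies (red) left of control flies (grey), with mean and SD (n = 3 per group) as black bars and each axis starting at 0. Hml is higher and NimC1 lower in all 3 overexpressing libraries, and the libraries of the groups overlap for 7 of the other members but not for NimA.

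Both calls were lost when limma was run without its intensity trend (adjusted p = 0.149 for Hml and 0.0835 for NimC1), a setting that left 193 of all genes called (1.46%). NimC1 kept its call in limma when any 1 library was left out, with log2 fold changes from -0.67 to -0.49, and also with edgeR (adjusted p = 0.00498) and DESeq2 (adjusted p = 0.000329) on the recovered reads. Hml was called by edgeR (adjusted p = 0.0251) and DESeq2 (adjusted p = 0.00676), but in limma it lost its call without overexpression replicate 1 (0.19), without control replicate 2 (0.18) and without control replicate 3 (0.21).

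Ratios of reads within a library do not depend on the scaling between libraries. The ratio of Hml to NimC1 reads was 24.3, 30.2 and 27.8 in overexpressing flies, against 17.1, 14.1 and 16.7 in control flies. The mean ratio was thus 1.72 times the control mean, and the libraries of the groups did not overlap. Hml lay above and NimC1 below the controls in every overexpressing library, so this separation followed from their separate values. Against eater, a plasmatocyte receptor gene that was not called, Hml stood at 26.8 ± 1.33 in overexpressing flies and 22.5 ± 1.75 in control flies, again with no overlap. Against crq the groups overlapped, with Hml to crq ratios of 3.56, 3.29 and 3.60 in overexpressing flies and 3.30, 2.76 and 2.89 in control flies. NimC1 exceeded eater in each control library, with ratios of 1.43, 1.49 and 1.31, whereas the overexpressing flies had ratios of 1.06, 0.876 and 1.02. These pairs, like NimC1 to NimB4 and Hml to Pxn below, were chosen after the values of the genes were known. An exact permutation test (two-sided) of 3 against 3 libraries cannot go below p = 0.1, so the ratios are given without a test.

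**Figure D3:**
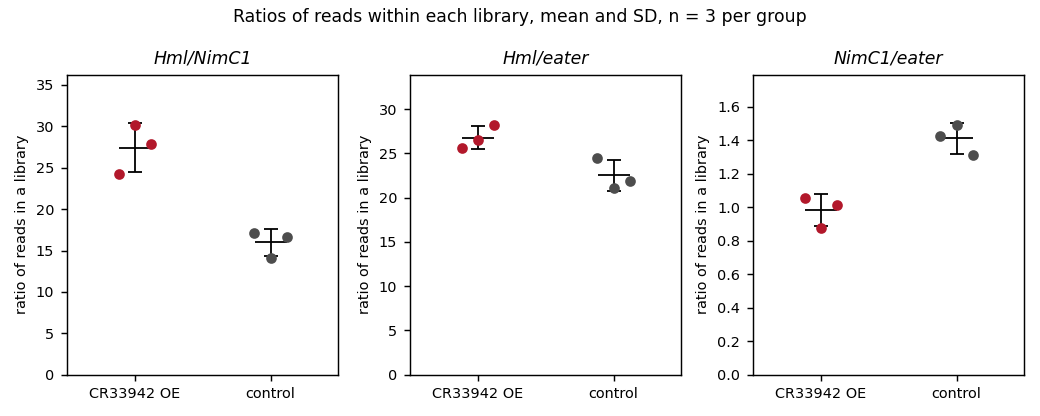
Ratio of the reads of 2 genes within each library, overexpressing flies (red) left of control flies (grey), with mean and SD (n = 3 per group) and axes starting at 0. The Hml to NimC1 ratio averages 27.4 in overexpressing flies and 16.0 in control flies.

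The other receptor genes gave no call. The gene eater encodes a receptor for bacteria that is largely restricted to plasmatocytes. It had 296, 279 and 252 normalized counts in overexpressing flies, against 272, 287 and 288 in control flies. The groups overlapped, and the 95% interval of the difference ran from -15.4% to 12.0% (limma adjusted p = 0.855). For drpr, the receptor by which glia and blood cells engulf dying cells and their debris, the values were 1949, 2184 and 1992 normalized counts in overexpressing flies, against 2146, 2047 and 1965 in control flies. Its interval ran from -8.86% to 8.41% (limma adjusted p = 0.950). The values of crq, whose product croquemort binds apoptotic cells, were 2133, 2239 and 1979 normalized counts in overexpressing flies, against 2021, 2199 and 2185 in control flies. Its interval ran from -9.25% to 8.19% (limma adjusted p = 0.923). These 3 intervals reached at most 15.4% downward and 12.0% upward, both for eater. They are 95% intervals from 3 libraries per group, not firm bounds.

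NimA and NimC2, further genes of the Nimrod family, were read at low depth. NimA had 119, 95.6 and 106 normalized counts in overexpressing flies, against 94.5, 91.3 and 79.6 in control flies. All 3 overexpressing libraries lay above the control libraries, but the log2 fold change of 0.27 did not pass the test (95% interval -0.060 to 0.59, limma adjusted p = 0.331). NimC2 had 31.8, 40.7 and 26.4 normalized counts in overexpressing flies, against 31.5, 33.3 and 27.5 in control flies. The groups overlapped, and at this depth the interval from -27.1% to 53.1% (limma adjusted p = 0.889) covers sizable changes both ways. NimC4, also known as Simu, encodes a receptor for apoptotic cells. It had only 5, 4 and 7 reads in overexpressing flies, against 3, 10 and 3 reads in control flies. With so few reads a difference was not detectable, and the fit without a filter gave an interval from -1.01 to 1.23 on the log2 scale (limma adjusted p = 0.935).

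The regulator genes srp and ush did not pass the test, and their groups overlapped. The values of srp were 1006, 927 and 866 normalized counts in overexpressing flies, against 939, 895 and 898 in control flies. The interval of the difference ran from -7.26% to 12.9% (limma adjusted p = 0.820). The values of ush were 264, 245 and 225 normalized counts in overexpressing flies, against 240, 237 and 256 in control flies, with an interval from -13.8% to 15.9% (limma adjusted p = 0.996). For both genes the overexpressing libraries spread more widely than the control libraries. The coefficients of variation for srp were 7.50% in overexpressing flies and 2.67% in control flies. Those for ush were 8.09% in overexpressing flies and 4.13% in control flies. The wider spread was not particular to these regulator genes, since every other member tested except Hml had it too. The difference in spread was not tested.

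**Figure D4:**
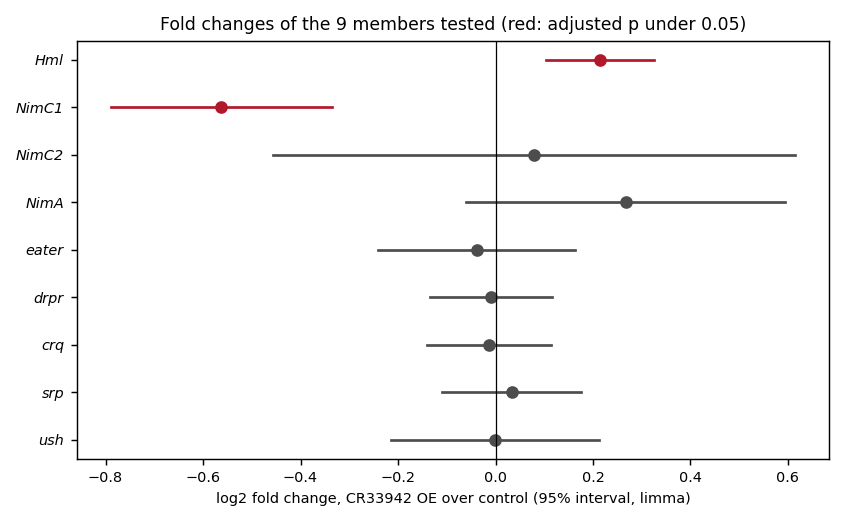
Log2 fold change of the 9 members tested, overexpressing over control flies, with 95% intervals from limma. Only Hml (0.21) and NimC1 (-0.56), in red, have an adjusted p under 0.05, and the widest interval is that of NimC2.

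Of the 10 members 6 lie on chromosome arm 2L, 2 on 3L and 2 on 3R (positions as deposited, release 6). The Nimrod genes on 2L form a cluster, in which NimA spans 13957539 to 13963381 on the plus strand, NimC1 13973158 to 13976769 on the minus strand, NimC2 13980126 to 13983269 and NimC4 14047582 to 14048863, both on the plus strand. Hml spans 13846054 to 13860001 on the plus strand of 3L and eater 27095867 to 27099679 on the minus strand of 3R. Of the 19 listed genes from the start of NimA to the end of NimC4, a stretch of 91.32 kb, 12 were tested and 3 were called, each of them lower. Over all genes tested 5.24% were called lower and 3.18% higher. The calls were NimC1, NimB4 and bgm, which encodes an acyl-CoA synthetase. NimB4 encodes a secreted Nimrod protein. It had 287, 216 and 210 normalized counts in overexpressing flies, against 371, 356 and 335 in control flies. Its log2 fold change of -0.59 (standard error 0.118, limma adjusted p = 0.00876) was close to that of NimC1, and the ratio of NimC1 to NimB4 reads was 1.15 ± 0.0638 in overexpressing flies and 1.13 ± 0.0781 in control flies. The NimB4 call was lost without control replicate 1 (-0.55). NimB5, which lies between NimB4 and NimC1, had a log2 fold change of -0.26 with no overlap of the groups (limma adjusted p = 0.169), while NimB1 (0.12), NimB2 (-0.062) and NimB3 (-0.067) were not called. Of the 5 other Nimrod genes measured, NimB4 was thus the single one called, with a median log2 fold change of -0.067 over the 5. The bgm log2 fold change was -0.57 (limma adjusted p = 0.0236). Between NimB5 and NimC1 lies He, the gene of the pan-blood-cell antigen Hemese, which had at most 12.2 normalized counts in any library and did not pass the filter.

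Counting may mix members with overlapping genes on the other strand, since the sources used here do not say whether counting used the strand. In the reference annotation (BDGP6.54) NimC2 shares 527 exonic bases with rk on the other strand and crq shares 448 with ex on the other strand. On the same strand srp shares 938 bases with a noncoding RNA, CR44133, ush shares 524 with another, CR46258, and drpr shares 115 with Oseg4. CR46258 was not among the genes of the deposited table. How reads shared by genes on the same strand were counted was not examined. Hml, NimC1, NimA and eater overlap no other annotated gene there, and NimC4 shares no exonic base with the gene it lies in. The positions of 9 members were the same in the deposited table and in this annotation, and the end of srp lay 4 bases further on in the annotation.

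In 1 list of 9 other blood cell genes, the calls were lower. The lists of phagocytosis receptors, regulators and crystal cell markers described further on held genes called higher. Of these, lz stands in the lists of regulators and of crystal cell markers alike. Of the 9 blood cell genes, 6 were tested and 5 of them were called, all lower. Over all genes tested 5.24% were called lower and 3.18% higher, shares that also stand beside the lists below. The median log2 fold change of the 6 was -0.34, beside 0.0059 for all genes tested. The lists were chosen with earlier results of these data known, so the count is a description only. The collagen IV genes Cg25C (Col4a1) and vkg, which the fat body expresses too, had log2 fold changes of -0.48 and -0.46 (limma adjusted p = 0.000145 and 0.00056), and Ppn, which encodes the matrix protein papilin, -0.36 (limma adjusted p = 0.00335). Pvr, the receptor for blood cell survival and migration signals, had -0.21 (limma adjusted p = 0.0208), and Pxn, the matrix peroxidase that plasmatocytes secrete, -0.33 (limma adjusted p = 0.0491). The ratio of Hml to Pxn reads was 12.5 ± 1.0 in overexpressing flies and 8.57 ± 0.762 in control flies. It restates the higher Hml and lower Pxn values. The Pvr call was lost without overexpression replicate 1 (-0.20) or control replicate 1 (-0.21), 2 (-0.20) or 3 (-0.22), and with scaling to the library total (-0.17). The Pxn groups overlapped, and its call was lost under 10 of 15 alternatives, among them those without overexpression replicate 1 (-0.30) or 3 (-0.30) and control replicate 1 (-0.24) or 3 (-0.31). Without the intensity trend Cg25C and GATAe (below) were the related genes still called, of 11 in all the lists of related genes. The actin-bundling gene sn had a log2 fold change of 0.50 with no overlap of the groups (limma adjusted p = 0.0905).

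Of the 7 tested genes of other phagocytosis receptors 1 was called, with a median log2 fold change of 0.21. PGRP-LC, the transmembrane receptor for peptidoglycan at the head of the Imd pathway, had 2931 ± 231 normalized counts in overexpressing flies and 2232 ± 166 in control flies, a log2 fold change of 0.39 (limma adjusted p = 0.00351). The integrin gene scb had 0.27 (limma adjusted p = 0.0576) and the scavenger receptor gene Sr-CI -0.15 (limma adjusted p = 0.423). Among the 12 tested relatives of crq in the CD36 family, 2 were called lower, and the median log2 fold change was -0.17. They were ninaD (-0.40, limma adjusted p = 0.0145) and santa-maria (-0.32, limma adjusted p = 0.0269), both known for carotenoid uptake. The ninaD call did not hold without control replicate 1 (-0.37) or 3 (-0.34), nor that of santa-maria without overexpression replicate 2 (-0.27) or control replicate 1 (-0.25) or 3 (-0.35) or with scaling to the library total (-0.28). The most abundant relative, emp, had a log2 fold change of -0.061 (limma adjusted p = 0.480).

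The pathway inside the engulfing cell gave no call. All 14 genes of this list were tested and 0 were called by limma, edgeR or DESeq2, with a median log2 fold change of 0.0065 in limma. At an unadjusted limma p under 0.05 there were 2 higher, the F-box gene pall and the kinase gene Src42A, and 1 lower, ced-6. The gene ced-6 encodes the adaptor that binds the tail of Draper, with 3596 ± 56.3 normalized counts in overexpressing flies and 3965 ± 52.4 in control flies (-0.14, limma adjusted p = 0.0715), and the kinase gene shark (-0.057, limma adjusted p = 0.732). The GTPase genes Rac1 (0.10), Rac2 (-0.032), Rab5 (0.070) and Rab7 (-0.019), which drive actin assembly and phagosome maturation, had limma adjusted p-values of 0.332 to 0.867.

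Of the 12 tested GATA genes and blood cell regulators 2 were called, both higher, and the median log2 fold change was 0.11. GATAe, the GATA factor gene of the midgut, had 477 ± 25.2 normalized counts in overexpressing flies and 323 ± 6.23 in control flies, a log2 fold change of 0.56 (limma adjusted p = 0.000757) that was called in all 15 alternatives run. The crystal cell regulator lz had 79.0 ± 15.4 normalized counts in overexpressing flies and 41.6 ± 13.1 in control flies, a log2 fold change of 0.94 (limma adjusted p = 0.0314). Its call was lost without overexpression replicate 1 (0.99) or 2 (0.78) and without control replicate 2 (0.73) or 3 (0.91). The other GATA factor genes grn (-0.18), pnr (0.11) and GATAd (-0.038) were not called, like srp.

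Markers of other cells were read beside the members, since whole flies hold them all. Every marker gene had reads in at least 1 library. Of 4 crystal cell markers 2 were called higher, lz and the prophenoloxidase gene PPO2 (0.56, limma adjusted p = 0.0327). PPO1 (0.64, limma adjusted p = 0.0579) and peb (-0.065, limma adjusted p = 0.642) were not called, and the groups did not overlap for PPO1. DESeq2 called 3 of the 4 higher. The summed level of the 4 was 1421 to 1544 normalized counts in overexpressing flies against 1291 to 1382 in control flies. Most of that sum was peb, with 935 ± 55.1 normalized counts in overexpressing flies and 979 ± 73.0 in control flies. The PPO2 call was lost without overexpression replicate 2 (0.49) or 3 (0.50) and without control replicate 1 (0.58) or 3 (0.44). Lamellocyte markers are genes of the flat blood cells that encapsulate parasites. Of 5 tested, PPO3 was called higher (1.05, limma adjusted p = 0.0491) and the integrin gene mys lower (-0.37, limma adjusted p = 0.0005). The sum of the 6 listed was 9171 to 9536 normalized counts in overexpressing flies against 10368 to 10699 in control flies. PPO3 was a small part of that sum, with 66.9 ± 18.7 normalized counts in overexpressing flies and 32.8 ± 12.7 in control flies. The PPO3 call was lost under 10 alternatives, among them those without overexpression replicate 1 (1.15), 2 (0.83) or 3 (1.16) and control replicate 1 (1.12) or 2 (0.72).

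Of the 6 fat body markers 5 were called lower, and Apoltp was not called (-0.13, limma adjusted p = 0.202). The summed level of all 6 was 28296 to 39737 normalized counts in overexpressing flies against 41959 to 46726 in control flies. Most of that sum was Rfabg, with 28348 ± 5870 normalized counts in overexpressing flies and 37476 ± 3357 in control flies. Fbp1, Fbp2, Lsp2 and Lsp1alpha added far less, with group means of 39.3 to 1053. The 5 called were the larval serum protein genes Lsp2 (-1.59) and Lsp1alpha (-1.81), the fat body protein genes Fbp1 (-1.69) and Fbp2 (-2.36), and the lipophorin gene Rfabg (-0.42). Their limma adjusted p-values were 0.00487 to 0.0489, while edgeR called 3 of the 6 lower and DESeq2 2. Fbp2 kept its call with any 1 library left out. Lsp2 lost it without control replicate 1 (-1.54), Fbp1 without overexpression replicate 1 (-1.48) or 3 (-1.32) and control replicate 1 (-1.77) or 2 (-1.27), Rfabg without overexpression replicate 2 (-0.28) or 3 (-0.40) and control replicate 1 (-0.41) or 3 (-0.36), and Lsp1alpha without overexpression replicate 1 (-1.33) or 3 (-1.59) or any control library (-2.01 to -1.52). Of the alternatives run, Fbp2 kept its call in 14 of 15, Lsp2 in 12 of 14, Fbp1 in 9 of 15, Lsp1alpha in 6 of 14 and Rfabg in 3 of 15. Rfabg also lost it with a pseudocount of 0.1, with no filter, with a filter of 5 FPKM, with scaling to the library total and with quantile normalization (limma adjusted p = 0.0522 to 0.0861). Without the intensity trend none of these 5 kept its call (0 of 5), and mys was the one called marker of all those lists that did. Muscle markers had 2 of 4 called lower, Mhc (-0.40) and up (-0.27). The groups overlapped for the uncalled muscle markers Act88F (0.028) and fln (-0.035). Glia markers had 1 of 7 called, Eaat1, which was lower (-0.26). Positive fold changes were seen for 2 of the 7, repo (0.24, limma adjusted p = 0.160) and alrm (0.20, limma adjusted p = 0.313). The repo groups did not overlap, and it was the 1 glia marker higher at an unadjusted limma p under 0.05. Neuron markers had 0 of 4 called by limma, edgeR or DESeq2. At an unadjusted limma p under 0.05 there were 2 lower, the synaptic genes brp and Syt1. The Mhc call was lost without overexpression replicate 1 (-0.37) or control replicate 1 (-0.33) or 3 (-0.41), the up call without control replicate 1 (-0.28) or 3 (-0.26), and the Eaat1 call without overexpression replicate 2 (-0.19) or control replicate 1 (-0.26) or 3 (-0.22) and with scaling to the library total (-0.22) or quantile normalization (-0.20). The part of these other tissues in the values of Hml, NimC1 and the blood cell genes was not tested.

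**Figure D5:**
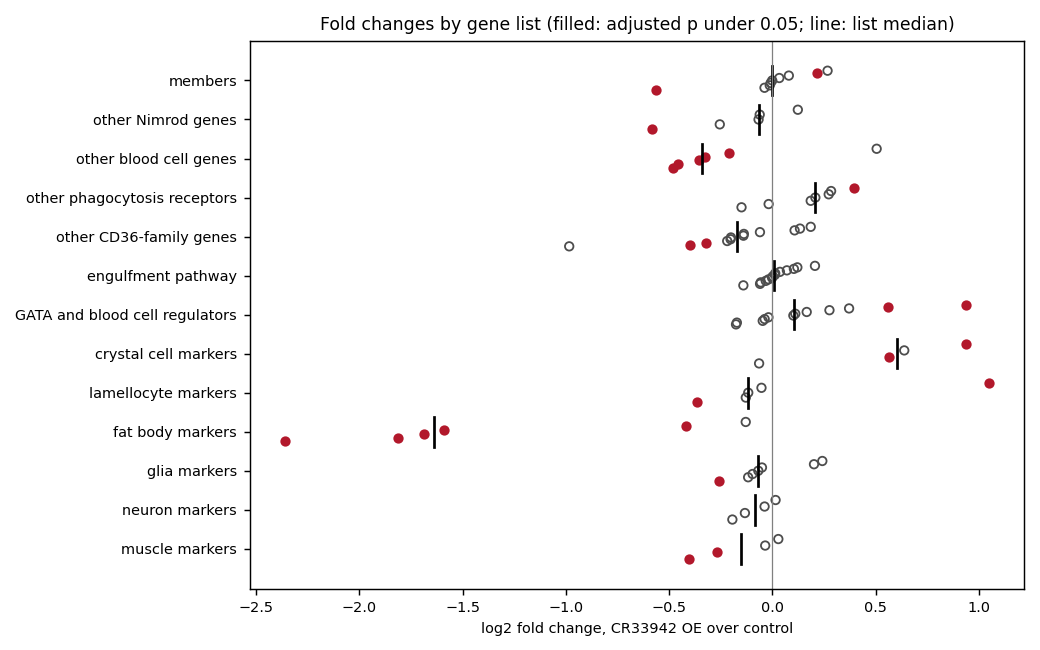
Log2 fold changes, overexpressing over control flies, of the tested genes of the 10 members and of 12 other lists, with called genes filled, genes not called open and list medians as black lines. The engulfment pathway lies around its median of 0.0065 with no call, and 5 of the 6 fat body markers are called lower.

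The 3 genes whose profile over the 6 libraries was most like the mean of the centred profiles of Hml, NimC1 and eater were CG5210 (Pearson r = 0.999), CG5793 (0.993) and CG34331 (0.990), found among the 13196 genes tested. The mean profile joins a gene that was higher with one that was lower, and the 6 libraries share their 2 groups and their scaling, so these values are a description only. All 3 had a limma adjusted p of 0.0821 or more, with log2 fold changes of -0.14, -0.13 and -0.38 in that order.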

How the data were processed

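Poly(A)-selected RNA of 6 samples, 3 per group, was sequenced. The authors aligned paired-end reads with HISAT2 2.0.5, counted them per gene with featureCounts 1.5.0-p3 and compared groups with DESeq2. Per the submitters' processing notes the genome build was dm6; the annotation release is not given in the sources read. The file name says FPKM, but the deposited signal of each library is the count of reads over a size factor common to all genes. Multiplied by that factor, 100% of values were whole within a tolerance of 0.01, and these reads gave FPKM with the deposited gene lengths. Columns of the authors' own comparison (fold changes and p-values) and of group means were not used. Replicates differed by more than sampling noise in each pair (chi-square per degree of freedom 5.24 to 9.37).

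limma 3.58.1 in R 4.3.3 compared log2(normalized count + 1) with an intensity trend and no covariate, over genes whose mean reached 0.5 FPKM. Scripts were tested on simulated data. Alternatives were a pseudocount of 0.1, no filter or a filter of 5 FPKM, scaling to the library total, quantile normalization, no trend, the replicate number as a block, edgeR 4.0.16, DESeq2 1.42.0 and each library left out. Plots used matplotlib 3.10.9. Named are all members, lncRNA-CR33942, the called genes of each list or else its most abundant ones, and 3 genes of like profile. The genes bgm, pall, Src42A, brp, Syt1, sn, scb, Sr-CI, ced-6, shark, Rac1, Rac2, Rab5, grn, pnr, NimB1, NimB3, NimB5 and He were added after their values were seen. So were repo, alrm, Act88F, fln, Apoltp, PPO1 and peb. Members and lists were chosen with earlier results of these data known. NimC3 was not analysed here. CG12789 and santa-maria are 1 gene and were counted once.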

Additional observations from a re-analysis of the deposited data

How the results depend on the processing

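Over 15 alternatives the log2 fold changes of lncRNA-CR33942, the 9 members and the called list genes kept their direction and side of the threshold 357 times, no longer passed it 96 times, newly passed it 0 times and changed sign 19 times. lncRNA-CR33942 stayed called throughout (4.48 to 4.60). Without the intensity trend 0 members were called higher and 0 lower, and 94 genes were higher and 99 lower over all genes. Of the other list genes, here those of the lists of related genes without the marker lists, 2 were called in place of 11. Scaling to the library total raised the genes called higher to 632. With 1 library left out, members called higher ranged from 0 to 1 and members called lower stayed at 1, all genes called higher ranged from 201 to 393 and lower from 328 to 618, and other list genes called from 6 to 11; the lowest came without control replicate 1 (201 and 328 genes, and 6 list genes, as without control replicate 3), and without overexpression replicate 1 there were 279 genes called higher, without control replicate 3 there were 235 and 394. These fits have fewer samples; the cause of each other change was not tested.

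Sign changes touched only uncalled members near 0. Scaling to the library total turned eater to 0.0020, crq to 0.028, drpr to 0.032 and ush to 0.039, quantile normalization turned crq to 0.017 and drpr to 0.026, and ush was 0.00024 with edgeR and 0.00050 with DESeq2. With 1 library left out, NimC2 ranged from -0.079 to 0.22, eater from -0.092 to 0.024, crq from -0.055 to 0.035, drpr from -0.058 to 0.024, srp from -0.022 to 0.085 and ush from -0.058 to 0.059. Over all genes tested, same-numbered libraries did not deviate together (correlations of -0.034, 0.052 and -0.036), so the numbers were not taken to pair them. The fat body markers Fbp1, Fbp2, Lsp1alpha and Lsp2 were, however, each highest in replicate 2 of both groups. In the fit with that number as a block, the limma adjusted p was 6.13e-08 for Fbp1 and 1.48e-08 for Fbp2. It was 0.000357 for Lsp1alpha and 1.16e-05 for Lsp2. The cause was not tested. With the replicate number as a block, Hml (0.21, limma adjusted p = 0.0105) and NimC1 (-0.56, limma adjusted p = 0.00243) kept their calls and 1363 genes were called over all genes, against 1111 without it. Depth limits NimC4, with at most 10 reads in a library, and NimC2, with at most 40.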
